A study of Mus musculus with 8 samples.

Results

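Interferon-stimulated genes were described across all 8 RNA sequencing libraries of mouse liver, as the rows of the count table that carry 1 of 43 gene symbols chosen by name. The table of 37583 rows held 42 of these symbols in 43 rows, because Psmb9 has 2 rows, and 41 of the 43 rows were among the 17362 rows with enough reads for testing. No row is named Ifi27. The Ensembl gene known by that name, ENSMUSG00000064215, stands in the table as Ifi27l1 and was not counted as a member. The PR-SET7_LOBE group holds 4 libraries of genotype PR-SET7_LX_ALB_CRE, in which the histone methyltransferase gene Pr-Set7 (Setd8 in the table) was inactivated in hepatocytes. By that design the other cell types of the liver would keep the gene, which was not checked here, and the labels do not explain the word LOBE. The DEN_WT group holds 2 libraries of wild-type mice that received DEN (diethyl nitrosamine), a liver carcinogen, into the peritoneum at postnatal day 15, with a labelled dose of 25 ml per kg. The WT group holds 2 libraries of wild-type mice for which no injection or vehicle is named. All groups were C57BL6/CBA mice sampled at 8 months of age, and the samples are whole liver. Samples of a group are named only by a replicate number and are not said to come from separate animals. Every p-value here therefore sets a difference between groups against the spread of these samples, and that spread may be technical.

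Interferons are secreted proteins that cells release on sensing viral or misplaced nucleic acid. Type I interferons act through the receptor IFNAR and the kinases JAK1 and TYK2 on the complex ISGF3, whose subunits include STAT2 and IRF9 and which binds the interferon-stimulated response element (ISRE) in promoters, and interferon gamma acts through its own receptor, IFNGR. The genes switched on in this way include the sensors and transcription factors that feed the loop, the ISG15 system, antiviral effectors, GTPases against intracellular pathogens, and the machinery that loads peptides on MHC class I. In liver both hepatocytes and the resident immune cells respond to interferon.

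Levels are given as CPM, read counts scaled to the TMM-adjusted total of the library, in the order of replicate number. Total counts ran from 7305595 to 12170293 in PR-SET7_LOBE, from 10120058 to 10802335 in DEN_WT and from 13757466 to 16108081 in WT libraries, and 3 counts correspond to 0.265 to 0.287 CPM. Log2 CPM over all tested genes correlated between replicates at r of 0.849 to 0.942 in PR-SET7_LOBE, 0.972 in DEN_WT and 0.931 in WT. PR-SET7_LOBE library 1 had a mean r of 0.906 with the 2 WT libraries and 0.874 with the other libraries of its own group. For library 2 these values were 0.894 and 0.892, for library 3 0.847 and 0.902, and for library 4 0.854 and 0.887. Libraries 3 and 4 correlated at 0.942 with each other. Setd8 was at 62.6, 57.4, 47.9 and 46.5 CPM in PR-SET7_LOBE, 40.0 and 42.8 CPM in DEN_WT, and 51.9 and 56.0 CPM in WT libraries. Counts over the whole gene in whole liver do not show whether part of it was deleted in hepatocytes, so this checks no label.

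The ISRE is the sequence through which ISGF3 acts, and it was not used to choose the genes. RefSeq promoter windows of build GRCm38.p6, 250 bases before to 50 after the gene start, matched 31 of the 43 symbols. The ISRE core was searched as GAAA, any 2 bases and GAAA again, on both strands, and 17 of these 31 genes (54.8%) held it, against 3.99% of 27025 genes with a window. The STAT site TTCNNNGAA, searched likewise, was in 9 of the 31 (29.0%), against 9.55% of all genes, and 4 of the 31 held both motifs. By role, the ISRE core was in both sensors and all 5 GTPases with a window, 8 of 13 antiviral effectors, Isg15 and, among the 4 transcription factors, Stat2. The GTPases Gbp6 and Iigp1, of which Iigp1 changed in DEN_WT (below), matched no window and were not searched. None of the 3 antigen-processing genes or of Ifi35, Ifi44 and Xaf1 held it, which says only that these letters are not in this window.

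Shown here are the 250 bases upstream of 4 genes with the motif, Ifit1 and Rsad2 for the large differences they carry below, and Isg15 and Irgm1 as cases with overlapping matches, followed by Ifi44 and Xaf1, which changed in DEN_WT and lack the motif. Capitals mark each match of the ISRE core or of its reverse complement. Sequences run 5′ to 3′ along the gene. Positions on GRCm38.p6 are chr19:34640639-34640888, plus strand for Ifit1, chr12:26456453-26456702, minus strand for Rsad2, chr4:156200819-156201068, minus strand for Isg15, chr11:48871421-48871670, minus strand for Irgm1, chr3:151749911-151750160, minus strand for Ifi44 and chr11:72301379-72301628, plus strand for Xaf1.
Ifit1: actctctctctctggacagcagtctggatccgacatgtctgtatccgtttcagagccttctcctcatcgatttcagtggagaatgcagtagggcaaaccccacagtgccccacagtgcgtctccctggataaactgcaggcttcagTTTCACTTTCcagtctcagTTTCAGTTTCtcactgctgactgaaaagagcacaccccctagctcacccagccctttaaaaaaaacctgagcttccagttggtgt
Rsad2: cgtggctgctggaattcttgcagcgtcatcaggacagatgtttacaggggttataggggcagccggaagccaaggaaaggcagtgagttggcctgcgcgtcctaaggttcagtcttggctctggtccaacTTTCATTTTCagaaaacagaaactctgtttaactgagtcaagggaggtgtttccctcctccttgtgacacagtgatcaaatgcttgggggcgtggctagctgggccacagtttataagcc
Isg15: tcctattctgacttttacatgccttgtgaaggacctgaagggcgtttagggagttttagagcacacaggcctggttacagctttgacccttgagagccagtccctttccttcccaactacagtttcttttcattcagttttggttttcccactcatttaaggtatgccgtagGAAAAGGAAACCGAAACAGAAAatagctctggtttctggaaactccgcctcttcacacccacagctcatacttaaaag
Irgm1: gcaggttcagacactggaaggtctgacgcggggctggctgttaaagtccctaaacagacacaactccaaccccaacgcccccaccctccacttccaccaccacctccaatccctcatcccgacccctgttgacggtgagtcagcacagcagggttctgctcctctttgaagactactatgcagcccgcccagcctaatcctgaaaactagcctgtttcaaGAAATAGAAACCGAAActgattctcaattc
Ifi44: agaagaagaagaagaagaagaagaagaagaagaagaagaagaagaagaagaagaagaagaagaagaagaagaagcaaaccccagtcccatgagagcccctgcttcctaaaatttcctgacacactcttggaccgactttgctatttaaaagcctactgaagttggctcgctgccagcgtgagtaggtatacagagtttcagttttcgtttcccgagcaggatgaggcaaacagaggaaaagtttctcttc
Xaf1: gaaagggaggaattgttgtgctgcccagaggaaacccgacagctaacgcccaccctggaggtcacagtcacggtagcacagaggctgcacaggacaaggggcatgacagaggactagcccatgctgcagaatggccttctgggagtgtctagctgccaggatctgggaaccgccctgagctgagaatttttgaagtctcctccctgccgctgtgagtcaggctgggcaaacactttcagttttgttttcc
The matches began 104 and 85 bases before the start of Ifit1, 120 bases before that of Rsad2, 78, 72 and 66 bases before that of Isg15 and 30 and 24 bases before that of Irgm1. Several members also lie side by side in the table's own build, mm9. Ifit1 (chr19:34715361-34724499), Ifit2 (chr19:34625184-34650909) and Ifit3 (chr19:34658021-34663221) form 1 such group, and Rsad2 (chr12:27127618-27141317) and Cmpk2 (chr12:27154069-27164700) another. Oas1a, Oas1g, Oas2 and Oas3 lie together on chromosome 5, and Irgm2 and Igtp on chromosome 11.

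Across libraries, members were most often lowest in WT library 2 and highest in PR-SET7_LOBE library 3. WT library 2 was the lowest of the 8 for 20 of the 41 tested members (48.8%), against 13.6% of all tested genes. PR-SET7_LOBE library 3 was the highest for 19 members (46.3%), against 11.5% of all tested genes. Taken as log2 CPM minus each gene's own mean over the 8 libraries, the median member stood at -0.09, 0.20, 0.69 and 0.06 in PR-SET7_LOBE, at 0.28 and -0.03 in DEN_WT, and at -0.24 and -1.13 in WT libraries. PR-SET7_LOBE library 1 was the highest library for 6 members (14.6%) and the lowest for 9 (22%), near the 16.6% and 20.1% of all tested genes.

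**Figure D1:**
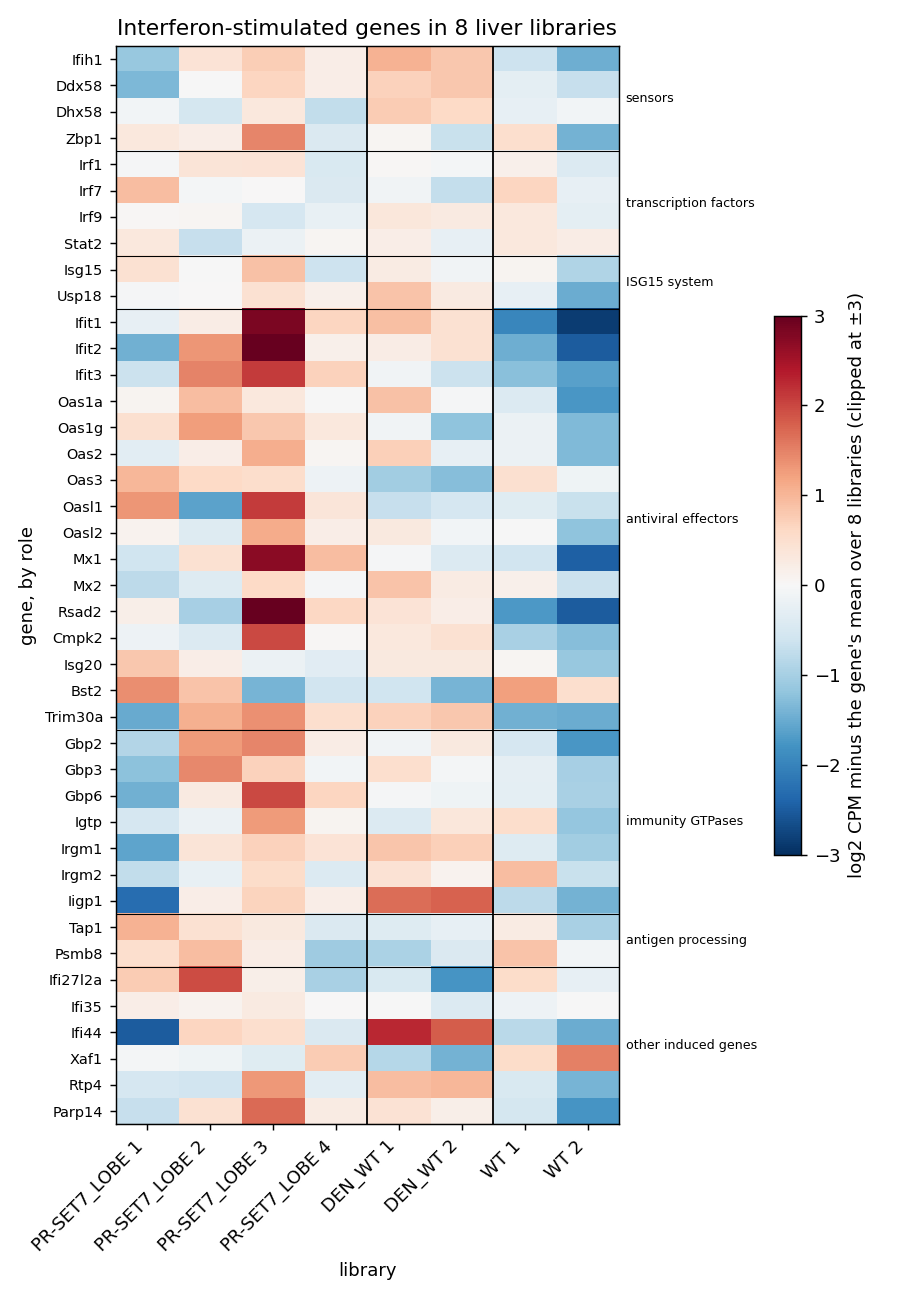
Heat map of log2 CPM minus the gene's mean over 8 libraries, 1 row per tested member (41 rows, grouped by role) and 1 column per library, with PR-SET7_LOBE, DEN_WT and WT from left to right and colours clipped at ±3. WT library 2 is blue for most rows, PR-SET7_LOBE library 3 is darkest red for Ifit1, Ifit2, Mx1 and Rsad2, and both DEN_WT libraries are red for Iigp1 and Ifi44.

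The 2 WT libraries differed from each other over nearly the whole set. WT library 1 was above WT library 2 for 38 of the 41 members (92.7%), with a median ratio of 1.76, against 53.2% of 14243 genes with 10 counts or more in 1 of them and a median ratio of 1.04. The widest ratios were those of Mx1 (3.86), the sensor Zbp1 (3.82) and the GTPase Igtp (3.20). Xaf1 had the smallest, 0.516, and Dhx58 and Ifi35 were the other members below 1. The number of members above WT library 1 was smaller than that above WT library 2 in every other library. In PR-SET7_LOBE libraries 20, 27, 32 and 25 members were above WT library 1 (all genes: 44.1%, 52.9%, 53.6% and 52.7%). Above WT library 2 there were 30, 37, 37 and 32 (all genes: 45.8%, 52%, 53.3% and 53%). In DEN_WT libraries 28 and 22 members were above WT library 1 (all genes: 51.3% and 51.6%), and 33 in each were above WT library 2 (all genes: 52.7% in each). The shares of members nearest those of all genes were 48.8% in PR-SET7_LOBE library 1 and 53.7% in DEN_WT library 2, both against WT library 1.

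Markers of macrophages differed between the WT libraries as well. Of 11 macrophage symbols, 10 had a row, all 10 were tested and none was at 0 in any library. Their summed level was 1460, 1070, 1010 and 540 CPM in PR-SET7_LOBE, 573 and 409 CPM in DEN_WT, and 1640 and 462 CPM in WT libraries. The 13 T and NK cell markers summed to between 21.8 and 29.1 CPM in PR-SET7_LOBE, to 9.65 and 8.30 CPM in DEN_WT, and to 21.6 and 21.4 CPM in WT libraries. Cd3g was at 0 in both WT libraries, and Trac and Ncr1 were at 0 in WT library 2. Klrb1c, Ncr1 and Gzma were at 0 in PR-SET7_LOBE library 1. Cd3d alone made up most of the WT sum, at 0.354 and 0.265 CPM in DEN_WT and 14.0 and 13.6 CPM in WT libraries. Without Cd3d, a choice made after its values were seen, the sum was 15.3, 15.6, 18.8 and 16.0 CPM in PR-SET7_LOBE, 9.30 and 8.04 CPM in DEN_WT, and 7.66 and 7.84 CPM in WT libraries. In PR-SET7_LOBE over WT, 10 of the 11 tested T and NK cell markers had a log2 fold change above 0 (all genes: 54.6%). None was called, where 0.248% of all genes were called. Several of these markers had few reads, such as Cd2 and Nkg7 with 4 and 1 counts each in the WT libraries. Hepatocyte markers summed to between 45400 and 160000 CPM in PR-SET7_LOBE, to 131000 and 152000 CPM in DEN_WT, and to 99800 and 123000 CPM in WT libraries, so these markers were abundant in every library. Alb alone ran from 9680 to 105000 CPM in PR-SET7_LOBE, so the sum hides the other markers. In PR-SET7_LOBE over WT, 7 of the 8 had a log2 fold change below 0 and 1, Alb, was above 0 (all genes: 54.6% above 0). None of the 8 was called (all genes: 0.248%). The part of these cell types in the members' levels was not tested, and in whole liver fewer cells of a type and less RNA per cell cannot be told apart.

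**Figure D2:**
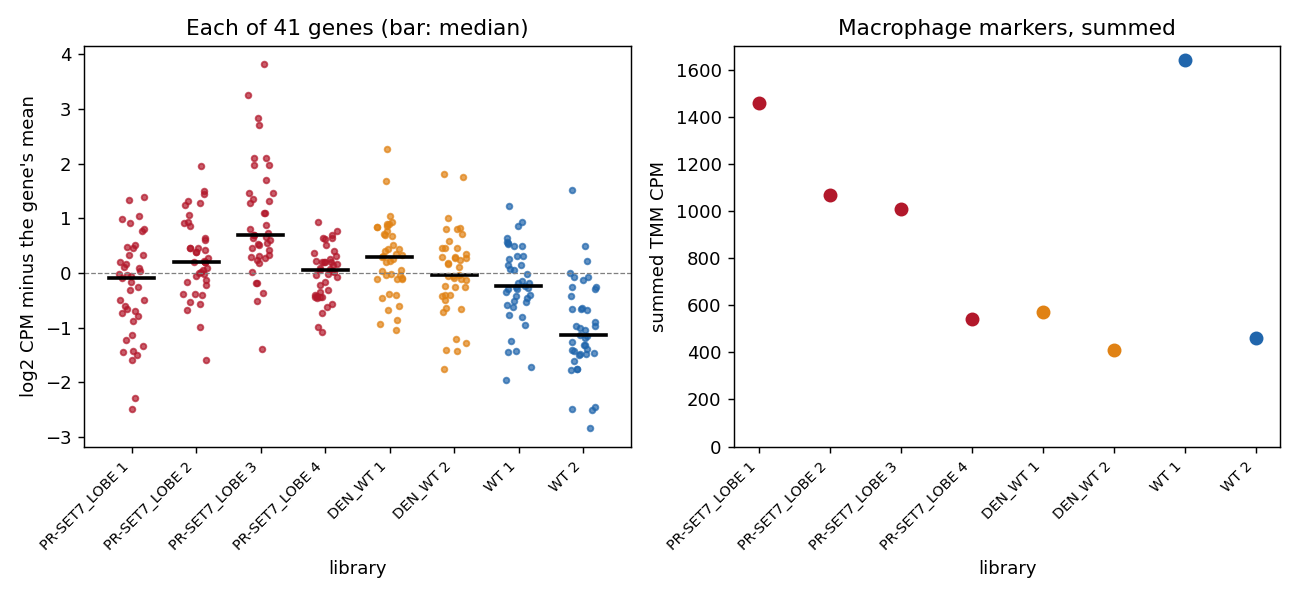
Left, each of 41 tested members as log2 CPM minus the gene's mean over 8 libraries, with the median as a bar. Right, the summed CPM of 10 macrophage markers. Medians run from -1.13 in WT library 2 to 0.69 in PR-SET7_LOBE library 3, while the macrophage sum is highest, 1640 CPM, in WT library 1.

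The first comparison asks whether loss of Pr-Set7 in hepatocytes goes with a change of these genes. Antiviral effectors were the members with the largest differences between PR-SET7_LOBE and WT livers, led by Rsad2, Ifit1 and Ifit2, while the 4 transcription factors had a median log2 fold change of -0.12. No member passed the test. At an adjusted p under 0.05 (edgeR's quasi-likelihood test, Benjamini-Hochberg over all 17362 genes) 0 of 41 members were called, where 0.248% of all tested genes were called, and the smallest adjusted p among members was 0.123. At an unadjusted p under 0.05, 12 members were higher and 1 was lower, against 11.1% and 6.08% of all genes, and DESeq2 called 6 members, all higher, against 5.57% of the genes to which it gave an adjusted p. Limma voom called 1 member, Ifit3, against 1.24% of all genes. The median log2 fold change was 0.88 over the members and 0.11 over all tested genes, and 33 of 41 members were above 0, against 54.6% of all genes. All 4 PR-SET7_LOBE libraries were above both WT libraries for 9 members (all genes: 11.6%) and below both for 0 (all genes: 10.5%). The 9 were Usp18, Ifit1, Ifit2, Ifit3, Oas1a, Oas1g, Rsad2, Cmpk2 and Ifi35. Without PR-SET7_LOBE library 1 the test called 10 members, all higher, where 13.9% of all genes were called: Gbp2, Ifih1, Ifit1, Ifit2, Ifit3, Iigp1, Irgm1, Mx1, Parp14 and Trim30a. Leaving out PR-SET7_LOBE library 2, 3 or 4 instead gave 0 members called each time, where 0.087%, 0.177% and 0.623% of all genes were called. The median log2 fold change was 1.49 without WT library 1 and 0.50 without WT library 2.

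The second comparison sets livers of DEN-injected mice against WT livers and shares the WT libraries with the first. Iigp1 and Ifi44 rose and Xaf1 fell. These were 3 of 41 members called, where 9.73% of all tested genes were called, 5.18% higher and 4.54% lower. At an unadjusted p under 0.05, 10 members were higher and 3 lower, against 16.0% and 12.9% of all genes. The median log2 fold change was 0.77 over the members and 0.06 over all tested genes, with 29 of 41 above 0, against 51.5% of all genes. Both DEN_WT libraries were above both WT libraries for 22 members (all genes: 37.8%) and below both for 6 (all genes: 33.3%), namely Stat2, Oas3, Bst2, Psmb8, Ifi27l2a and Xaf1. With 1 of the 4 DEN_WT and WT libraries left out, the test called 0 members without DEN_WT library 1, DEN_WT library 2 or WT library 2, where 2.62%, 1.75% and 4.17% of all genes were called. Without WT library 1 it called 1 member, Xaf1, where 3.02% of all genes were called. Leaving out PR-SET7_LOBE library 1, 2, 3 or 4, which belong to neither group, gave 8, 2, 7 and 2 members called, against 26.5%, 8.30%, 12.8% and 11.6% of all genes. The members' median log2 fold change was 1.28 without WT library 1 and 0.48 without WT library 2 or DEN_WT library 1.

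**Figure D3:**
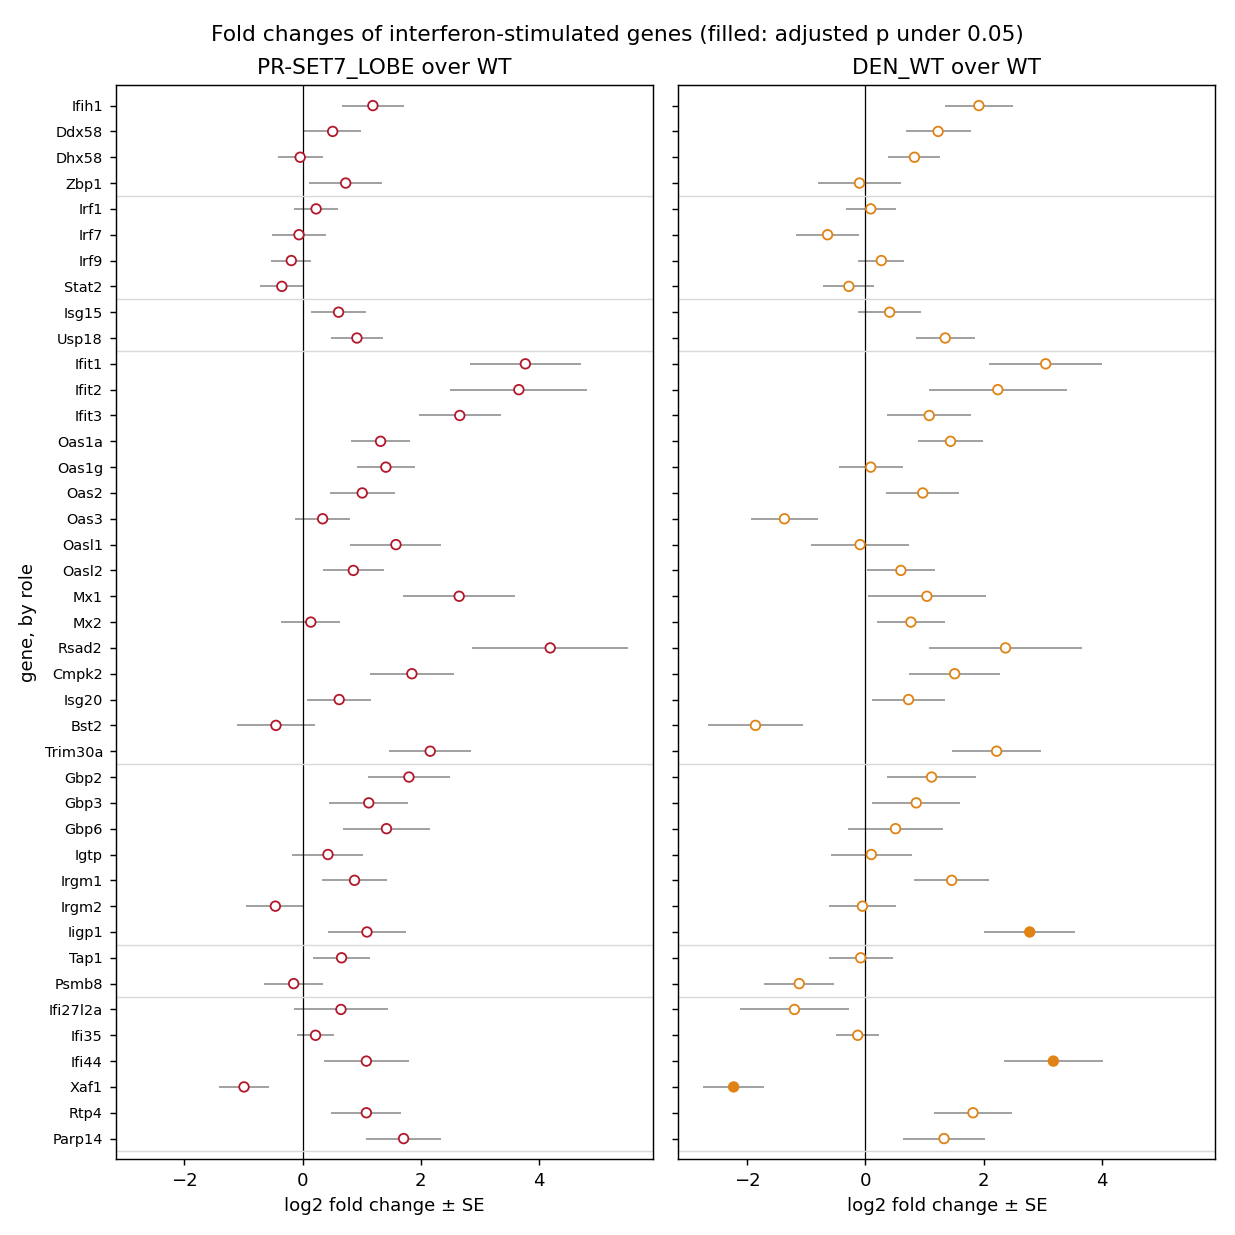
Log2 fold change ± SE of each of 41 tested members, PR-SET7_LOBE over WT on the left and DEN_WT over WT on the right, on 1 shared axis and grouped by role. Filled points have an adjusted p under 0.05: none in the left panel, and Iigp1 (2.78), Ifi44 (3.18) and Xaf1 (-2.23) in the right panel.

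PR-SET7_LOBE and DEN_WT livers were also set against each other. The test called 0 of 41 members, where 11.1% of all tested genes were called, and the smallest adjusted p was 0.0550, for Oas3. At an unadjusted p under 0.05, 4 members were higher and 3 lower in PR-SET7_LOBE, against 12.9% of all genes in each direction, and DESeq2 called Oas3 as higher and Ifi44 and Iigp1 as lower, where it called 16.4% of all genes. The median log2 fold change was 0.33 over the members and 0.18 over all tested genes, with 26 of 41 members above 0, against 57.0% of all genes, and the members' median was -0.17 without PR-SET7_LOBE library 3, 0.14 without DEN_WT library 2 and -0.13 with the replicate number as a block. The 4 PR-SET7_LOBE libraries lay above both DEN_WT libraries for Oas1g, Oas3, Ifi35 and Xaf1 (all genes: 19.3%) and below both for Ifih1, Ddx58, Dhx58, Irf9, Irgm1, Iigp1 and Ifi44 (all genes: 21.2%).

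Among the 4 sensors, the cytosolic RNA sensors Ifih1 (MDA5) and Ddx58 (RIG-I) were highest in DEN_WT. Ifih1 was at 7.70, 22.6, 28.2 and 19.5 CPM in PR-SET7_LOBE, 35.0 and 29.8 CPM in DEN_WT, and 11.0 and 6.09 CPM in WT libraries. Both DEN_WT libraries exceeded the other 6, and PR-SET7_LOBE library 1 lay between the WT libraries. The log2 fold change of Ifih1 in DEN_WT over WT was 1.92 (SE 0.58, adjusted p = 0.0602). Ddx58 was at 8.73, 22.2, 34.8 and 25.6 CPM in PR-SET7_LOBE, 36.0 and 38.9 CPM in DEN_WT, and 18.2 and 13.8 CPM in WT libraries, with a log2 fold change in DEN_WT over WT of 1.23 (SE 0.55, adjusted p = 0.170). PR-SET7_LOBE library 1 was the lowest library for Ddx58 and the remaining PR-SET7_LOBE libraries stood between WT and DEN_WT. Dhx58 (LGP2), which modulates the other two sensors, ranged from 10.6 to 22.1 CPM in PR-SET7_LOBE, was at 29.8 and 26.5 CPM in DEN_WT, and at 14.9 and 16.6 CPM in WT libraries. Zbp1, which senses nucleic acid in the Z conformation and can start necroptosis, was at 22.1, 20.2, 49.1 and 13.0 CPM in PR-SET7_LOBE, 18.3 and 11.1 CPM in DEN_WT, and 25.0 and 6.55 CPM in WT libraries. The WT libraries spanned those of DEN_WT for Zbp1, and its log2 fold change in PR-SET7_LOBE over DEN_WT was 0.82 (SE 0.63, adjusted p = 0.431).

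The 4 transcription factors showed no such rank order. Stat2, a subunit of ISGF3, was at 89.5, 44.7, 63.1 and 74.6 CPM in PR-SET7_LOBE, 82.7 and 60.0 CPM in DEN_WT, and 89.2 and 83.6 CPM in WT libraries. Its log2 fold change in PR-SET7_LOBE over WT was -0.35 (SE 0.37, adjusted p = 0.628). Irf7, the factor that amplifies interferon alpha production, was at 197, 100, 105 and 76.4 CPM in PR-SET7_LOBE, 96.8 and 62.9 CPM in DEN_WT, and 162 and 87.1 CPM in WT libraries. Its highest levels were in PR-SET7_LOBE library 1 and WT library 1, and the fold change in PR-SET7_LOBE over DEN_WT was 0.58 on the log2 scale (SE 0.47, adjusted p = 0.462). Irf1, a factor induced by interferon gamma, ranged from 32.5 to 59.5 CPM in PR-SET7_LOBE and was at 45.4 and 42.8 CPM in DEN_WT and 49.5 and 33.3 CPM in WT libraries. Irf9, the DNA-binding subunit of ISGF3, ranged from 29.9 to 44.1 CPM in PR-SET7_LOBE and was at 54.0 and 51.4 CPM in DEN_WT and 52.8 and 34.9 CPM in WT libraries. The median log2 fold change of the 4 factors was -0.12 in PR-SET7_LOBE and -0.09 in DEN_WT over WT. Irf7 overlaps Phrf1 on the opposite strand by 45 bases and Irf9 overlaps Rnf31 on the same strand by 123 bases, so their counts may hold reads of a neighbour.

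Isg15, a ubiquitin-like modifier, was at 27.5, 20.0, 37.0 and 13.0 CPM in PR-SET7_LOBE, 23.9 and 18.6 CPM in DEN_WT, and 21.2 and 10.8 CPM in WT libraries. All groups overlapped, and the log2 fold change in PR-SET7_LOBE over WT was 0.61 (SE 0.47, adjusted p = 0.504). Its promoter, printed above, holds 3 overlapping ISRE matches. Usp18, which removes ISG15 from proteins and dampens the receptor, was at 11.6, 12.0, 16.2 and 13.2 CPM in PR-SET7_LOBE, 21.4 and 14.2 CPM in DEN_WT, and 9.86 and 4.15 CPM in WT libraries. Every PR-SET7_LOBE and DEN_WT library was above both WT libraries for Usp18, and the log2 fold change in DEN_WT over WT was 1.35 (SE 0.50, adjusted p = 0.107).

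Antiviral effectors made up 16 of the members, and their median log2 fold change was 1.49 in PR-SET7_LOBE and 1.00 in DEN_WT over WT, with 15 and 13 above 0. The IFIT proteins bind viral RNA and block its translation. Ifit1 was at 11.4, 15.8, 96.9 and 21.1 CPM in PR-SET7_LOBE, 25.3 and 18.6 CPM in DEN_WT, and 3.45 and 1.84 CPM in WT libraries. Every library of both other groups exceeded WT, and PR-SET7_LOBE library 3 exceeded all others. The log2 fold change of Ifit1 was 3.77 in PR-SET7_LOBE over WT (SE 0.94, adjusted p = 0.123) and 3.05 in DEN_WT over WT (SE 0.96, adjusted p = 0.0683). Ifit3 was at 14.1, 62.5, 95.4 and 36.0 CPM in PR-SET7_LOBE, 20.6 and 14.1 CPM in DEN_WT, and 9.28 and 7.19 CPM in WT libraries, with a log2 fold change in PR-SET7_LOBE over WT of 2.66 (SE 0.69, adjusted p = 0.134). Ifit2 was at 3.10, 21.1, 81.2 and 9.38 CPM in PR-SET7_LOBE, 9.83 and 11.7 CPM in DEN_WT, and 3.06 and 1.48 CPM in WT libraries, with a log2 fold change in PR-SET7_LOBE over WT of 3.66 (SE 1.16, adjusted p = 0.181). In PR-SET7_LOBE library 1, Ifit2 was at the level of WT library 1. Transcripts of Ifit3 and Ifit3b are 97.8% identical over 97.4% of the length, so their reads may have been shared.

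Rsad2 (viperin), a radical SAM enzyme that makes a chain-terminating nucleotide, was at 11.4, 5.07, 144 and 15.7 CPM in PR-SET7_LOBE, 13.5 and 11.6 CPM in DEN_WT, and 3.06 and 1.75 CPM in WT libraries. PR-SET7_LOBE library 3 carried most of the group mean, yet each of the 6 libraries was above both WT libraries. The log2 fold change was 4.19 in PR-SET7_LOBE over WT (SE 1.32, adjusted p = 0.180), the largest of any member in that comparison. Its neighbour Cmpk2, a kinase that supplies nucleotides to the viperin reaction, was at 7.04, 5.93, 31.1 and 8.11 CPM in PR-SET7_LOBE, 9.83 and 10.9 CPM in DEN_WT, and 4.02 and 3.23 CPM in WT libraries. The pair thus had its highest value in the same library and its lowest in WT library 2.

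Mx1, a gene of the dynamin-like GTPase family, was at 2.44, 5.17, 24.8 and 7.2 CPM in PR-SET7_LOBE, 3.63 and 2.83 CPM in DEN_WT, and 2.49 and 0.645 CPM in WT libraries. Its log2 fold change in PR-SET7_LOBE over WT was 2.65 (SE 0.95, adjusted p = 0.22), while PR-SET7_LOBE library 1 was just below WT library 1. Mx2 ranged from 3.76 to 9.93 CPM in PR-SET7_LOBE and was at 11.7 and 7.68 CPM in DEN_WT and 7.18 and 4.15 CPM in WT libraries. Transcripts of Mx1 and Mx2 share 94.8% identity over part of their length, so a split of reads between them is uncertain.

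The OAS enzymes make the 2-5A messenger that activates RNase L. Oas1a was at 25.3, 45.4, 29.4 and 23.4 CPM in PR-SET7_LOBE, 43.9 and 23.2 CPM in DEN_WT, and 17.8 and 7.01 CPM in WT libraries. Oas1g was at 24.1, 41.4, 30.6 and 21.6 CPM in PR-SET7_LOBE, 16.1 and 7.51 CPM in DEN_WT, and 15.3 and 6.91 CPM in WT libraries. Both were above WT in all 4 PR-SET7_LOBE libraries, and in DEN_WT they parted, with log2 fold changes over WT of 1.44 for Oas1a (SE 0.55, adjusted p = 0.117) and 0.09 for Oas1g (SE 0.54, adjusted p = 0.930), and the Oas1g value was -0.27 without WT library 2 and -0.54 without DEN_WT library 1. Their transcripts are 97.6% identical, which leaves the split of reads between the 2 uncertain. Oas3 was at 9.96, 7.56, 7.24 and 4.46 CPM in PR-SET7_LOBE, 2.39 and 2.03 CPM in DEN_WT, and 6.99 and 4.52 CPM in WT libraries. It was lowest in both DEN_WT libraries, with log2 fold changes of 1.72 in PR-SET7_LOBE over DEN_WT (SE 0.51, adjusted p = 0.0550) and -1.37 in DEN_WT over WT (SE 0.56, adjusted p = 0.135). Oas2 ranged from 6.57 to 17.5 CPM in PR-SET7_LOBE and was at 13.5 and 6.89 CPM in DEN_WT and 7.18 and 3.23 CPM in WT libraries. Of the OAS-like genes, Oasl1, which in mouse limits Irf7 translation, was at 107, 14.0, 183 and 54.6 CPM in PR-SET7_LOBE, 26.4 and 30.0 CPM in DEN_WT, and 33.1 and 26.8 CPM in WT libraries. Its PR-SET7_LOBE libraries held both the highest and the lowest value of all 8, and the log2 fold change in PR-SET7_LOBE over DEN_WT was 1.67 (SE 0.78, adjusted p = 0.205). Oasl2 ranged from 7.37 to 20.7 CPM in PR-SET7_LOBE and was at 11.7 and 9.01 CPM in DEN_WT and 9.47 and 4.15 CPM in WT libraries.

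Bst2 (tetherin), which holds budding virions on the cell surface and also marks plasmacytoid dendritic cells, had another order of libraries. It was at 449, 311, 65.8 and 116 CPM in PR-SET7_LOBE, 112 and 64.8 CPM in DEN_WT, and 403 and 241 CPM in WT libraries. PR-SET7_LOBE library 3, which was highest for the IFIT genes and Rsad2, was near the DEN_WT libraries at the low end. The log2 fold change in DEN_WT over WT was -1.86 (SE 0.80, adjusted p = 0.155). The 7 markers of plasmacytoid dendritic cells, of which Bst2 is 1, summed to 684, 405, 314 and 238 CPM in PR-SET7_LOBE, 154 and 175 CPM in DEN_WT, and 524 and 279 CPM in WT libraries. Bst2 itself gave 449 of the 684 CPM in PR-SET7_LOBE library 1 and 403 of the 524 CPM in WT library 1. In PR-SET7_LOBE library 3 it gave 65.8 of the 314 CPM and Ly6d gave 169. The sum is therefore no reading of these cells apart from Bst2. In DEN_WT over WT these markers went both ways, as Runx2 fell (log2 change -4.05, adjusted p = 0.00894), Ly6d rose (log2 change 4.19, adjusted p = 0.0413) and the other 5 did not pass the test. Siglech was between 2.07 and 3.81 CPM in PR-SET7_LOBE, at 0.797 and 1.59 CPM in DEN_WT, and at 0.957 and 0.553 CPM in WT libraries, and no tested marker of the list was at 0 in any library. The part of these cells in the level of Bst2 was not tested. Trim30a, a TRIM-family regulator of innate signalling, was at 2.72, 16.4, 20.2 and 11.2 CPM in PR-SET7_LOBE, 12.6 and 13.8 CPM in DEN_WT, and 2.87 and 2.77 CPM in WT libraries. PR-SET7_LOBE library 1 was close to both WT libraries for Trim30a, libraries 2 and 3 were above both DEN_WT libraries and library 4 just below them, with a log2 fold change in PR-SET7_LOBE over WT of 2.16 (SE 0.69, adjusted p = 0.187). Isg20, an RNA exonuclease, ranged from 3.55 to 7.89 CPM in PR-SET7_LOBE and was at 5.58 and 5.56 CPM in DEN_WT and 4.69 and 2.03 CPM in WT libraries.

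**Figure D4:**
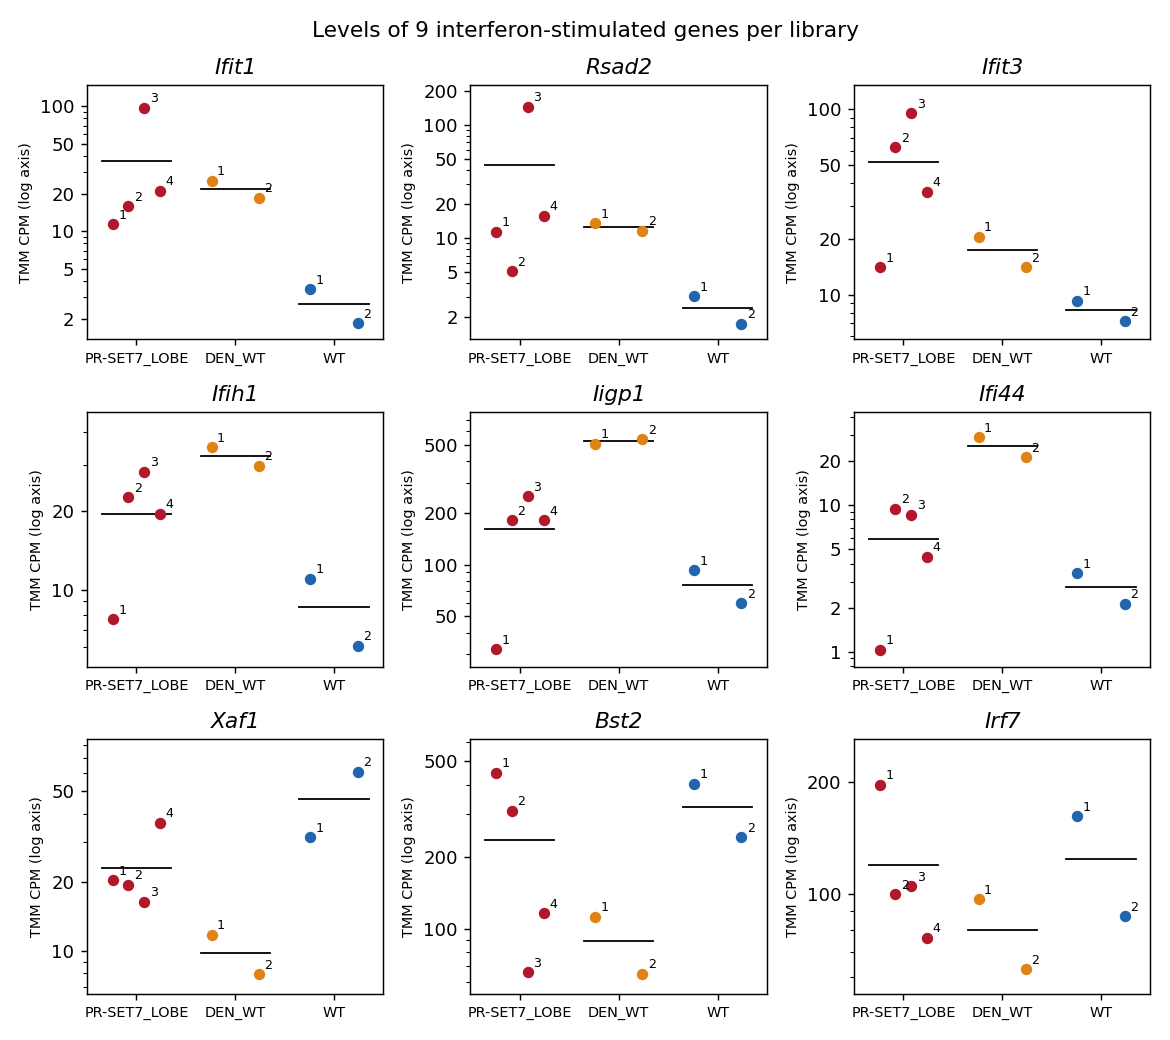
Level of 9 members in each library as CPM on a log axis, with the replicate number beside each point and the group mean as a line; PR-SET7_LOBE, DEN_WT and WT run from left to right. PR-SET7_LOBE library 3 is the highest point for Ifit1 (96.9 CPM), Rsad2 (144 CPM) and Ifit3 (95.4 CPM), both DEN_WT libraries are the highest points for Ifih1, Iigp1 and Ifi44, and both are below the 2 WT libraries for Xaf1 and Bst2.

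The GTPases of immunity attack the vacuoles of intracellular pathogens and are induced mainly by interferon gamma in mouse. Iigp1 (IRGA6) was at 32.2, 181, 251 and 182 CPM in PR-SET7_LOBE, 508 and 539 CPM in DEN_WT, and 92.6 and 59.3 CPM in WT libraries. Both DEN_WT libraries were above all others, and PR-SET7_LOBE library 1 was below all others. Iigp1 rose in DEN_WT over WT (log2 change 2.78, SE 0.77, adjusted p = 0.0460), and in PR-SET7_LOBE over DEN_WT the value was -1.70 (SE 0.60, adjusted p = 0.0999). The call on Iigp1 was lost without either WT library, either DEN_WT library, or PR-SET7_LOBE library 2 or 4, at adjusted p of 0.0547 to 0.223. Igtp (IRGM3) was at 79.8, 101, 275 and 121 CPM in PR-SET7_LOBE, 85.2 and 144 CPM in DEN_WT, and 163 and 50.9 CPM in WT libraries. The WT libraries of Igtp spanned all but 1 of the others, and the log2 fold change in PR-SET7_LOBE over WT, 0.43 (SE 0.60, adjusted p = 0.718), was -0.09 without WT library 2 and -0.01 without PR-SET7_LOBE library 3. Irgm1 was at 18.2, 71.1, 89.1 and 72.4 CPM in PR-SET7_LOBE, 97.6 and 89.9 CPM in DEN_WT, and 41.6 and 26.6 CPM in WT libraries. Its order of libraries was like that of Iigp1, with DEN_WT highest and PR-SET7_LOBE library 1 lowest, and the log2 fold change in DEN_WT over WT was 1.46 (SE 0.63, adjusted p = 0.154). Irgm2 ranged from 36.6 to 88.9 CPM in PR-SET7_LOBE and was at 82.6 and 65.5 CPM in DEN_WT and 116 and 38.3 CPM in WT libraries. The guanylate-binding proteins Gbp2, Gbp3 and Gbp6 had log2 fold changes in PR-SET7_LOBE over WT of 1.80, 1.12 and 1.42 and in DEN_WT over WT of 1.12, 0.86 and 0.51, none of which passed the test. All 3 were lower in PR-SET7_LOBE library 1 than in WT library 1, at 3.76, 3.29 and 5.82 CPM against 4.88, 6.41 and 12.9 CPM in the WT library. Gbp6 and Gbp10 transcripts are 99.2% identical over 80.1% of the length, so the Gbp6 value is uncertain.

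Of the antigen-processing genes, Tap1, a chain of the peptide transporter into the endoplasmic reticulum, was at 128, 85.6, 76.3 and 46.5 CPM in PR-SET7_LOBE, 47.9 and 52.2 CPM in DEN_WT, and 74.5 and 31.6 CPM in WT libraries. The log2 fold change in PR-SET7_LOBE over DEN_WT was 0.75 (SE 0.48, adjusted p = 0.355). Psmb8 (LMP7), a catalytic subunit of the immunoproteasome, was at 48.7, 64.4, 40.2 and 16.2 CPM in PR-SET7_LOBE, 17.7 and 25.4 CPM in DEN_WT, and 61.7 and 32.2 CPM in WT libraries. Both DEN_WT libraries were below both WT libraries for Psmb8, with a log2 change of -1.12 (SE 0.59, adjusted p = 0.235). Psmb9, another such subunit, is listed in 2 rows that overlap by 5765 bases on the same strand, and both rows hold 0 counts in all 8 libraries, which allows up to 0.287 CPM by the 3-count floor for counting error. How reads in overlaps were counted is not given in the sources used here, so no level of Psmb9 is reported. Tap1 overlaps these rows on the opposite strand.

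Among the other induced genes, Ifi44 and Xaf1 changed in DEN_WT in opposite directions. Ifi44 (chr3:151393886-151412911 on mm9), a GTP-binding cytoplasmic protein with antiviral activity, was at 1.03, 9.47, 8.63 and 4.46 CPM in PR-SET7_LOBE, 29.3 and 21.3 CPM in DEN_WT, and 3.45 and 2.12 CPM in WT libraries. As for Iigp1, DEN_WT libraries were the highest and PR-SET7_LOBE library 1 the lowest. Ifi44 rose in DEN_WT over WT (log2 change 3.18, SE 0.84, adjusted p = 0.0387), a call lost without any 1 of the 4 DEN_WT and WT libraries at adjusted p of 0.113 to 0.194, and in PR-SET7_LOBE over DEN_WT the value was -2.10 (SE 0.64, adjusted p = 0.0592). Xaf1 (chr11:72115131-72127235 on mm9), a proapoptotic partner of the apoptosis inhibitor XIAP, was at 20.5, 19.5, 16.5 and 36.4 CPM in PR-SET7_LOBE, 11.8 and 7.95 CPM in DEN_WT, and 31.5 and 61.0 CPM in WT libraries. WT library 2, the library most often lowest among members, was the highest for Xaf1, and DEN_WT libraries were the lowest. Xaf1 fell in DEN_WT over WT, with a log2 change of -2.23 (SE 0.52, adjusted p = 0.0246), a call lost without WT library 2 or either DEN_WT library at adjusted p of 0.109 to 0.225. In PR-SET7_LOBE over WT the Xaf1 value was -0.99 (SE 0.42, adjusted p = 0.266).

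Parp14, an ADP-ribosyltransferase, was at 22.7, 50.7, 120 and 44.3 CPM in PR-SET7_LOBE, 49.9 and 41.6 CPM in DEN_WT, and 25.6 and 10.8 CPM in WT libraries. Only PR-SET7_LOBE library 1 of the 6 fell within the WT range, and the log2 fold change in PR-SET7_LOBE over WT was 1.71 (SE 0.64, adjusted p = 0.236). Rtp4, a chaperone of receptor traffic that also binds viral RNA, was at 19.4, 18.7, 68.7 and 22.2 CPM in PR-SET7_LOBE, 52.3 and 55.3 CPM in DEN_WT, and 20.1 and 10.4 CPM in WT libraries. Ifi35 hardly varied, at 45.8 to 54.6 CPM in PR-SET7_LOBE, 44.7 and 34.1 CPM in DEN_WT, and 41.0 and 45.2 CPM in WT libraries, with a log2 fold change in PR-SET7_LOBE over DEN_WT of 0.35 (SE 0.32, adjusted p = 0.518). Ifi27l2a was the tested member with the fewest reads, ranging from 1.09 to 8.71 CPM in PR-SET7_LOBE and standing at 1.59 and 0.618 CPM in DEN_WT and 3.25 and 1.84 CPM in WT libraries. It overlaps Ifi27l2b on the same strand by 1512 bases, so its value is uncertain. The Ifi27l1 row that carries the Ifi27 identifier was at 116, 195, 80.3 and 155 CPM in PR-SET7_LOBE, 162 and 129 CPM in DEN_WT, and 119 and 154 CPM in WT libraries, and its groups overlapped.

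The rest of the pathway was read from lists of ligands, receptors, sensing genes and further induced genes. None of the 18 interferon ligand rows had enough reads for testing. Together they held 4, 2, 36 and 48 counts in PR-SET7_LOBE, 3 and 2 counts in DEN_WT, and 6 and 8 counts in WT libraries, and the 12 rows of interferon alpha genes held 2, 0, 20 and 33 counts in PR-SET7_LOBE, 2 and 0 in DEN_WT, and 2 and 2 in WT libraries. PR-SET7_LOBE libraries 3 and 4 thus had the most ligand reads and, beside that, the most genes with a count of all libraries, 26437 and 24812. PR-SET7_LOBE library 4 had more ligand counts than library 3 while its median member was lower, 0.06 against 0.69 on the log2 scale. Ifng had 2, 0, 2 and 5 counts in PR-SET7_LOBE, 1 and 2 in DEN_WT, and 0 in both WT libraries.

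Of the 9 receptor and kinase genes tested, 0 were called in any of the 3 comparisons by edgeR. The shares of all genes called were 0.248% in PR-SET7_LOBE over WT, 9.73% in DEN_WT over WT and 11.1% in PR-SET7_LOBE over DEN_WT. In DEN_WT over WT 3 were higher and 0 lower at an unadjusted p under 0.05, against 16.0% and 12.9% of all genes. There DESeq2 called Ifngr1, where it called 18.1% of all genes, and limma voom called Ifngr1, Il10rb, Jak1 and Jak2, where it called 36.3% of all genes, all 4 as higher. Ifnar1, a chain of the type I receptor, was at 44.6, 44.5, 37.8 and 31.4 CPM in PR-SET7_LOBE, 38.5 and 42.3 CPM in DEN_WT, and 40.0 and 34.9 CPM in WT libraries, a log2 fold change in DEN_WT over WT of 0.11 (SE 0.37, adjusted p = 0.870). Ifngr1, a chain of the interferon gamma receptor, was at 39.4, 31.5, 42.9 and 25.6 CPM in PR-SET7_LOBE, 52.6 and 62.8 CPM in DEN_WT, and 28.6 and 13.5 CPM in WT libraries. Both DEN_WT libraries exceeded all others for Ifngr1, with a log2 fold change over WT of 1.46 (SE 0.46, adjusted p = 0.0690). None of the 11 nucleic acid sensing genes was called by edgeR in any comparison, beside the same shares of all genes. At an unadjusted p under 0.05 there were 5 of these genes in PR-SET7_LOBE against WT, 4 in DEN_WT against WT and 2 in PR-SET7_LOBE against DEN_WT, beside 17.2%, 28.9% and 25.8% of all genes. DESeq2 called 1, 2 and 2 of the 11 in these comparisons, beside 5.57%, 18.1% and 16.4% of all genes, and limma voom 0, 4 and 3, beside 1.24%, 36.3% and 29.7%. Among 28 further induced genes, Samd9l rose in DEN_WT over WT and B2m was lower in PR-SET7_LOBE than in DEN_WT. Each was the only 1 of the 28 called in its comparison (3.57%), where 9.73% and 11.1% of all tested genes were called. In PR-SET7_LOBE over WT, 0 of the 28 were called (all genes: 0.248%). Samd9l, an antiviral translation inhibitor, was at 2.72, 15.3, 34.3 and 17.9 CPM in PR-SET7_LOBE, 26.1 and 20.0 CPM in DEN_WT, and 3.06 and 1.48 CPM in WT libraries, with a log2 fold change in DEN_WT over WT of 3.34 (SE 0.91, adjusted p = 0.0433). B2m, the light chain of MHC class I, was at 218, 560, 306 and 292 CPM in PR-SET7_LOBE, 1070 and 1410 CPM in DEN_WT, and 342 and 662 CPM in WT libraries, with a log2 fold change in PR-SET7_LOBE over DEN_WT of -1.85 (SE 0.47, adjusted p = 0.0280). The call on Samd9l was lost without either DEN_WT library, either WT library, or PR-SET7_LOBE library 2 or 4 (adjusted p 0.0534 to 0.216), and that on B2m without either DEN_WT library or PR-SET7_LOBE library 4 (0.0634 to 0.273).

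The members did not all follow 1 profile over the 8 libraries. Each gene's log2 CPM was compared with the mean of the members' standardised log2 CPM, a description over 8 libraries that share depth and group. Oas2 (r = 0.970), Parp14 (0.951) and Mx1 (0.908) were closest to that mean, to which they themselves contribute. Xaf1 (-0.62), Bst2 (-0.425) and Stat2 (-0.419) ran opposite to it. Among genes outside all lists the closest were Iqgap1 (r = 0.968), Mlkl (0.957), Cdc25a (0.954), Ap3m2 (0.951) and Pla2g4a (0.946). Like most members, all 5 were lower in WT library 2 than in WT library 1, and all 5 were highest in PR-SET7_LOBE library 3. The member mean is lowest and highest in these 2 libraries, and the 5 were picked for following it, so this is no separate result.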

How the data were processed

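Messenger RNA of 8 whole-liver samples was isolated on beads, cut with an RNase, ligated to adaptors, amplified and read on an Ion Proton, per the labels' protocols. The authors deposited raw counts for each Ensembl gene, which the single-sample files repeat. The submitters' processing notes name TopHat2 2.0.9, Cufflinks, DESeq and the mm9 build, while counting tool, annotation and strand setting are not given in the sources used. PCR reads that carry no molecular identifier are not independent molecules, so floors cover counting error only.

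All 8 libraries entered 1 edgeR 4.0.16 fit (R 4.3.3) with TMM scaling, the filter filterByExpr by group and the robust quasi-likelihood test, with Benjamini-Hochberg adjustment over 17362 genes and calls at an adjusted p under 0.05. The common biological coefficient of variation was 0.479. Replicates differed by more than sampling noise, with a chi-square of at least 27.4 per degree of freedom. Alternatives were RLE and upper-quartile scaling, DESeq2 1.42.0, limma 3.58.1 voom with quality weights, no filter, a filter of 5 CPM in 2 libraries, fits of 2 groups, a replicate block and leaving out each library. Members and gene lists were chosen with earlier results of these data known. The list of pathway regulators is not reported here. Fold changes are given for members that passed the test, the 2 members of each role with the highest mean CPM and the 3 with the largest WT ratio. Those of Ifih1, Ifit1, Ifit2, Ifit3, Rsad2, Trim30a, the OAS, GBP and IRGM genes, where outside that rule, were singled out after their values were seen. Overlaps come from the table, and copies from blastn 2.17.0 on GENCODE M21 transcripts (90% identity over 20% of the length), which also make Trim30a (copy Trim30d) and Isg15 (copy AC151275.1) uncertain.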

Additional observations from a re-analysis of the deposited data

Results flagged for a closer look

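In 4 of the 41 tested members, 1 of the 4 PR-SET7_LOBE libraries stood far from the rest by Dixon's test of the gap over the range at the 95% level, and each time it was library 3, which was high. The values in that library were 96.9 CPM for Ifit1, 144 CPM for Rsad2, 31.1 CPM for Cmpk2 and 68.7 CPM for Rtp4. Chance puts about 1 in 20 groups of normally distributed values past this limit. The test was run on CPM without a log, where that rate need not hold. The share among members, 9.76%, was close to the 9.11% of all tested genes whose highest or lowest PR-SET7_LOBE library did the same.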

How the results depend on the processing

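Each count of members called is followed by the share of all genes called in the same fit. PR-SET7_LOBE against WT had 0 members called under RLE scaling (0.253%), upper-quartile scaling (0.380%), the strict filter (0.315%) and the fit of 2 groups (0.115%), 6 with DESeq2 (5.57%), 1 with limma voom (1.24%), 1 with no filter (1.39%), and 0 to 10 when 1 library was left out (0.00531% to 13.9%). The median log2 fold change was then 0.50 to 1.49. DEN_WT against WT had 3 members called under RLE scaling (10%) and upper-quartile scaling (9.29%), 4 with the strict filter (12.7%), 8 with DESeq2 (18.1%), 14 with limma voom (36.3%), 6 with no filter (7.87%), 16 in the fit of 2 groups (37.8%), and 0 to 8 with 1 library left out (1.75% to 26.5%), when the median ran from 0.48 to 1.28. PR-SET7_LOBE against DEN_WT had 1 with upper-quartile scaling (10.8%), 3 with DESeq2 (16.4%), 8 with limma voom (29.7%), 2 with no filter (7.55%), and 0 to 4 with 1 library left out (2.41% to 15.5%), when the median ran from -0.17 to 0.46. Replicate numbers were checked for pairing by the correlation of the difference between replicates 1 and 2, which was 0.171 for WT and PR-SET7_LOBE, 0.0521 for WT and DEN_WT and 0.00797 for PR-SET7_LOBE and DEN_WT, so the numbers were not taken as pairs. With the replicate number as a block, 1, 9 and 4 members were called in the 3 comparisons in the order above (1.40%, 18.1% and 15% of all genes), the members' median in PR-SET7_LOBE over DEN_WT was -0.13, and the log2 fold change of Igtp in PR-SET7_LOBE over WT was -0.19. Igtp also turned to -0.09 without WT replicate 2 and -0.01 without PR-SET7_LOBE replicate 3, and Oas1g in DEN_WT over WT to -0.27 without WT replicate 2 and -0.54 without DEN_WT replicate 1, its range being -0.54 to 0.78. Of the values of single genes under alternatives, 593 kept their direction and side of the threshold, 68 passed it only under the alternative, 22 no longer passed it and 5 changed sign. Upper-quartile scaling moved the median of all genes in PR-SET7_LOBE over WT to 0.29, against 0.11 with TMM, and that of the members to 1.11. The cause of these shifts was not tested. At this depth the 18 interferon ligand rows held too few reads to be tested.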
